A study of Mus musculus with 47 samples.

Results

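The KO-only sites shared by PHF10 and ATF3 were ATF3 peaks of Pbrm1 knockout (KO) NMuMG cells after 48 h of TGFβ1 that overlapped a PHF10 peak of the same cells and time. They overlapped no ATF3 peak and no PHF10 peak of control cells at 48 h. Of 144513 KO ATF3 48 h peaks, 116138 overlapped a KO PHF10 48 h peak by at least 1 bp. Of those, 84625 lay outside the control ATF3 48 h peaks, 71154 also outside the peaks of control PHF10 replicate 1, and 35929 also outside those of replicate 2. The 35929 sites made up 24.9% of the KO ATF3 list, and 806216 peaks were listed in the 32 libraries together. The sites were thus chosen by the deposited KO and control ATF3 and PHF10 peak lists at 48 h, whose values at them are a description and support no test.

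NMuMG is an epithelial cell line from normal mouse mammary gland, in which TGFβ1 sets off the change from an epithelial to a mesenchymal state. The KO groups were NMuMG cells with Pbrm1 knocked out, given 5 ng/ml TGFβ1 for 48 h, with 1 library each for ATF3, PHF10, FOSL2 and FOSB. The control groups were NMuMG cells labelled control, also given 5 ng/ml TGFβ1 for 48 h, with 1 ATF3 library, 2 PHF10 libraries and 1 library each for FOSL2, FOSB and 5 histone marks. Control cells without TGFβ1 (0 h) gave 1 BRG1 library and 1 library for each mark. Further ATF3 and PHF10 libraries came from control and KO cells at 0 h and 24 h, with no KO PHF10 library at 24 h. FOSL2 and FOSB libraries of control and KO cells also came from 0 h. Cells of the 24 h groups were given 5 ng/ml TGFβ1, and those of the 0 h groups none. The way Pbrm1 was knocked out, whether the KO cells were 1 clone, and whether the PHF10 replicates were separate cultures are not given in the sources used here. Peak lists cannot check the Pbrm1 deletion. As a check of the cell type, 8 of 8 epithelial marker genes in untreated control cells had an H3K4me3 peak no farther than 2 kb from the start or end of the gene, and 8 of 8 had an H3K27ac peak. Among 25 marker genes of other cell types, 11 had H3K4me3 and 7 had H3K27ac there.

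Pbrm1 encodes the bromodomain subunit that, with Arid2, Brd7 and Phf10, sets the PBAF form of the SWI/SNF chromatin remodelling complex apart from its other forms. Smarca4 encodes BRG1, an ATPase that the forms of SWI/SNF share. ATF3 is a stress- and TGFβ-induced transcription factor of the ATF/CREB family. It pairs with JUN proteins and binds AP-1 and CRE motifs. FOSL2 and FOSB are FOS proteins that bind AP-1 motifs as partners of JUN proteins. H3K4me3 marks active promoters, H3K4me1 and H3K27ac mark enhancers, and H3K27ac, H3K18ac and H3K14ac are acetylations of open chromatin.

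Few KO-only sites lay at a promoter, and the sequences of 5 that did are shown, with the gene's RefSeq promoter window (250 bases before to 50 after the transcription start, GRCm38.p6, which is the mm10 assembly). They were chosen after their values were seen, because none of the sites named by rank overlapped a window. S100a3, Ypel4 and Gm8883 are 3 of 6 genes with a window where the KO-only site also held BRG1 at 0 h and KO FOSL2 at 48 h; of the 6, Ypel4 and Gm8883 held a motif searched for and the other 4 held none. Abca16 and Ttll9 are the windows of highly ranked sites that overlapped none of the other lists. Capitals mark the AP-1 motif TGANTCA, searched on both strands together with the CRE motif TGACGTCA, which none of the 5 windows held.
S100a3: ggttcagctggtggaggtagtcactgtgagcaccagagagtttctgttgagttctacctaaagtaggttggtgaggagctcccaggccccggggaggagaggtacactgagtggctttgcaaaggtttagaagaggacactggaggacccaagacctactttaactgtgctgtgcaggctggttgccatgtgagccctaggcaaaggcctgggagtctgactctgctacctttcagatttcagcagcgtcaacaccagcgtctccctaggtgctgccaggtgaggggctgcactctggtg
Ypel4: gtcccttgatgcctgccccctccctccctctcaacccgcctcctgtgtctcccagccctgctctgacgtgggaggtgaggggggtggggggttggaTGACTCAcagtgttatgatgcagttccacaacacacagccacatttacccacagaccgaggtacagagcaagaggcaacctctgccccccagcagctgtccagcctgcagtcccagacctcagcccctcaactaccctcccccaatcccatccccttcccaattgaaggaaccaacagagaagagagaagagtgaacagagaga
Gm8883: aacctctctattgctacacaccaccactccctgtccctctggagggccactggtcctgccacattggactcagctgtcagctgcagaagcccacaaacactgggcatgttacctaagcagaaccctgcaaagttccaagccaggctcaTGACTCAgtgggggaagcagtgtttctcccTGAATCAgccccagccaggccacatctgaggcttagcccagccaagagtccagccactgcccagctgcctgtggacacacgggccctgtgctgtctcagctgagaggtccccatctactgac
Abca16: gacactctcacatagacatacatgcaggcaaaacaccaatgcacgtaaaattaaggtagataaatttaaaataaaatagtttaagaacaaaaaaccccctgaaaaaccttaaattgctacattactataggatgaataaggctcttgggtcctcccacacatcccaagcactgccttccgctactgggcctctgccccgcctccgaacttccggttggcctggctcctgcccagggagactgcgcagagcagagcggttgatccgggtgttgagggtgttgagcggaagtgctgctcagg
Ttll9: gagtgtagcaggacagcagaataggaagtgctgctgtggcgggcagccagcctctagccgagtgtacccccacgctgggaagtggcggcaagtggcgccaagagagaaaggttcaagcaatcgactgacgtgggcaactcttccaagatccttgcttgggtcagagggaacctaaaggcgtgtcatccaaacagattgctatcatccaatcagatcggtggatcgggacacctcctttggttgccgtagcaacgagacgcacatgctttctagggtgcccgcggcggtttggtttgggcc

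The S100a3 window (chr3:90586702-90587001, plus strand) shared 111 bases with a site whose ATF3 summit lay 13 bp from the start. S100a3 encodes an EF-hand calcium-binding protein. Fold enrichment there was 2.21 for KO ATF3 and 3.20 for KO PHF10 at 48 h, 25.1 for KO FOSL2 and 11.5 for control FOSL2 at 48 h, and 3.16 for control BRG1 at 0 h. This was the highest KO FOSL2 fold of any KO-only site, at one of the weakest ATF3 peaks among them, and the window held no AP-1 or CRE motif. The Ypel4 window (chr2:84733954-84734253, plus strand) held 1 AP-1 motif, which began at base 97 of the window and lay inside the ATF3 peak. At Ypel4 the folds were 3.59 for KO ATF3, 2.76 for KO PHF10, 8.33 for KO FOSL2 and 3.36 for BRG1. The Gm8883 window (chr1:71887862-71888161, plus strand) held 2 AP-1 motifs, at bases 149 and 179, both inside the ATF3 peak, with folds of 2.50 for KO ATF3, 2.43 for KO PHF10, 7.30 for KO FOSL2 and 3.10 for BRG1. The Abca16 window (chr7:120409397-120409696, plus strand) held neither motif, and its site had folds of 7.15 for KO ATF3 and 6.13 for KO PHF10. Abca16 encodes an ABC transporter. The Ttll9 window (chr2:152962235-152962534, plus strand) lay wholly inside a site with folds of 6.27 for KO ATF3 and 4.59 for KO PHF10 and held neither motif. Ttll9 encodes a member of the tubulin tyrosine ligase-like family.

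Over all 565 promoter windows that overlapped a KO-only site, 46 (8.14%) held the AP-1 motif and 9 (1.59%) held the CRE motif. No window held both. Among 9412 windows at kept sites, defined as KO ATF3 peaks that overlapped a KO PHF10, a control ATF3 and a control PHF10 peak at 48 h, 3.79% held AP-1 and 3.02% held CRE. In all 32817 windows the shares were 7.81% and 1.79%. The windows at KO-only sites were thus close to all promoter windows in both motifs, with 95% exact binomial intervals of 6.02 to 10.7% for AP-1 and 0.731 to 3.00% for CRE that held the values of all windows.

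ATF3 and PHF10 at the KO-only sites were weak to moderate and of like height to those at kept sites. The deposited KO ATF3 fold over input had a median of 3.60 at KO-only sites (range 1.79 to 10.6), against 3.50 at the 30952 kept sites (1.69 to 41.0). The KO PHF10 fold had a median of 3.10 at KO-only sites (1.76 to 7.02), against 3.23 at kept sites (1.53 to 7.81). Significance was lower, with a median ATF3 −log10 q of 3.87 against 4.70 and a median PHF10 −log10 q of 2.89 against 3.92. The ATF3 peaks were also narrower, with a median of 289 bp against 488 bp, and their best PHF10 peaks had a median width of 724 bp against 1567.5 bp. Each of these is a value of the lists that chose the sites.

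**Figure D1:**
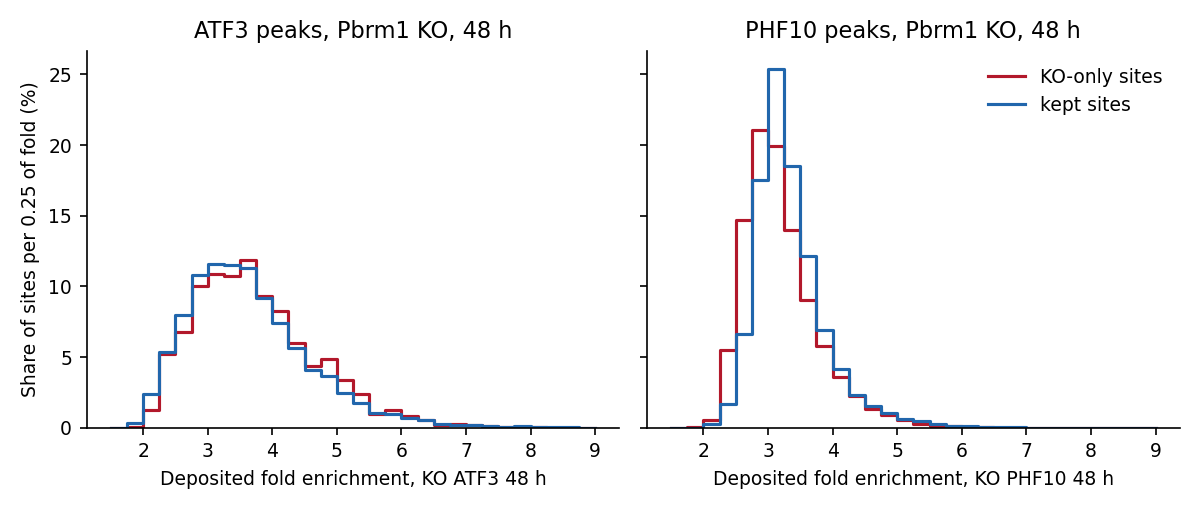
Share of sites (vertical axis, % per 0.25 of fold) by deposited fold enrichment over input (horizontal axis, no unit) in the KO ATF3 48 h list (left) and the KO PHF10 48 h list (right), for 35929 KO-only sites (red) and 30952 kept sites (blue). The red and blue outlines overlap almost fully for ATF3, with medians of 3.60 and 3.50, and are shifted slightly for PHF10, with medians of 3.10 and 3.23; folds above 9 are not drawn.

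Within the KO ATF3 list the share of KO-only sites was lower among the strongest peaks. They were 11.1% of the 1000 most significant KO ATF3 peaks, 15.7% of the first 5000 and 20.8% of the first 20000. A −log10 q of at least 5 in both KO lists was reached by 1276 KO-only sites (3.55%). The rule required the ATF3 and PHF10 peaks to overlap, so their distance was bounded by the peak widths and is a description only. The median was 199.5 bp between the ATF3 summit and the centre of the best PHF10 peak. At 17980 sites (50.0%) they lay within 200 bp. The sites fell under 33405 distinct KO PHF10 peaks. At most 4 sites shared a best PHF10 peak, and 13.4% of sites shared theirs with another site, so such sites are not separate PHF10 peaks.

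Lists of unequal length and strength chose the sites. The KO lists held 144513 ATF3 and 158815 PHF10 peaks, and the control lists held 45716 ATF3 peaks and 43549 and 102434 PHF10 peaks in replicates 1 and 2. Of KO ATF3 peaks, 77.9% lay in no control ATF3 peak, and of KO PHF10 peaks, 45.0% lay in no control PHF10 peak. Median fold was 3.52 in the KO ATF3 list and 6.75 in the control ATF3 list. With the KO lists shortened to the control lengths by significance, 7346 sites met the rule in place of 35929. Without control PHF10 replicate 2 the number was 71154. How far list length and antibody yield set the number was not tested beyond these values.

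A control ATF3 or PHF10 48 h peak was within 1 kb of 8161 KO-only sites (22.7%) and within 10 kb of 27461 (76.4%). Among the 24986 KO ATF3 peaks that overlapped neither a control peak nor a KO PHF10 peak, the shares were 10.8% and 65.5%. At the edge of the rule, 468 sites lay within 100 bp of a control peak and had a median ATF3 fold of 3.11. Another 2133 KO ATF3 peaks just missed it, with a best control overlap of at most 100 bp, and had a median ATF3 fold of 3.18.

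The KO-only sites were mostly outside every mark and BRG1 list. None of BRG1 at 0 h, the 10 control mark lists and KO FOSL2 at 48 h was found at 34078 sites (94.8%), against 13.4% of kept sites and 74.9% of all KO ATF3 48 h peaks. These libraries took no part in the rule, but all marks and BRG1 came from control cells. The ATF3 and PHF10 lists of control cells at 48 h defined the kept sites by their peaks and the KO-only sites by the absence of peaks. How far that choice set the contrast between KO-only and kept sites was not tested, so the contrast is a description only. With 1 library per list there was no test between groups, so shares carry 95% exact (Clopper-Pearson) binomial intervals that cover counting error only.

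BRG1, the SWI/SNF ATPase, was already present in untreated control cells at a small part of the sites. It overlapped 1441 KO-only sites (4.01%, interval 3.81 to 4.22%), against 24.3% of kept sites and 8.92% of all KO ATF3 peaks. The KO-only ATF3 peaks that lacked a KO PHF10 peak had BRG1 at 753 of 24986 (3.01%, 2.81 to 3.23%). With the ATF3 summit alone in place of the whole peak the shares were 2.94% of KO-only sites, 19.2% of kept sites and 6.84% of all KO ATF3 peaks. BRG1 fold at KO-only sites had a median of 2.87 (range 1.43 to 8.50), against 2.82 at kept sites and 2.90 over the whole BRG1 list of 29215 peaks. The highest BRG1 folds were 8.50 in the span of Maml3, a Notch co-activator, and 7.53 in the span of Runx1, a transcription factor; these 2 were chosen after their values were seen.

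BRG1-bound KO-only sites carried a listed mark more often than the other KO-only sites, yet most carried none. Any mark was found at 234 of the 1441 (16.2%, interval 14.4 to 18.2%), against 365 of 34488 sites without BRG1 (1.06%, 0.953 to 1.17%). All KO ATF3 peaks showed the same order, with 69.1% and 17.6%. Of the 1441, 1207 (83.8%, interval 81.8 to 85.6%) overlapped none of the 10 mark lists, against 103 of 7526 BRG1-bound kept sites (1.37%, 1.12 to 1.66%) and 30.9% of all BRG1-bound KO ATF3 peaks. These 1207 were 3.36% of KO-only sites, where 2.76% of all KO ATF3 peaks had BRG1 without a mark. Across the whole BRG1 list 59.0% of peaks lay outside the mark lists. BRG1-bound KO-only sites were within 2 kb of a gene end in 12.4% of cases. The share was 77.6% for BRG1-bound kept sites and 53.0% for all BRG1-bound KO ATF3 peaks.

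**Figure D2:**
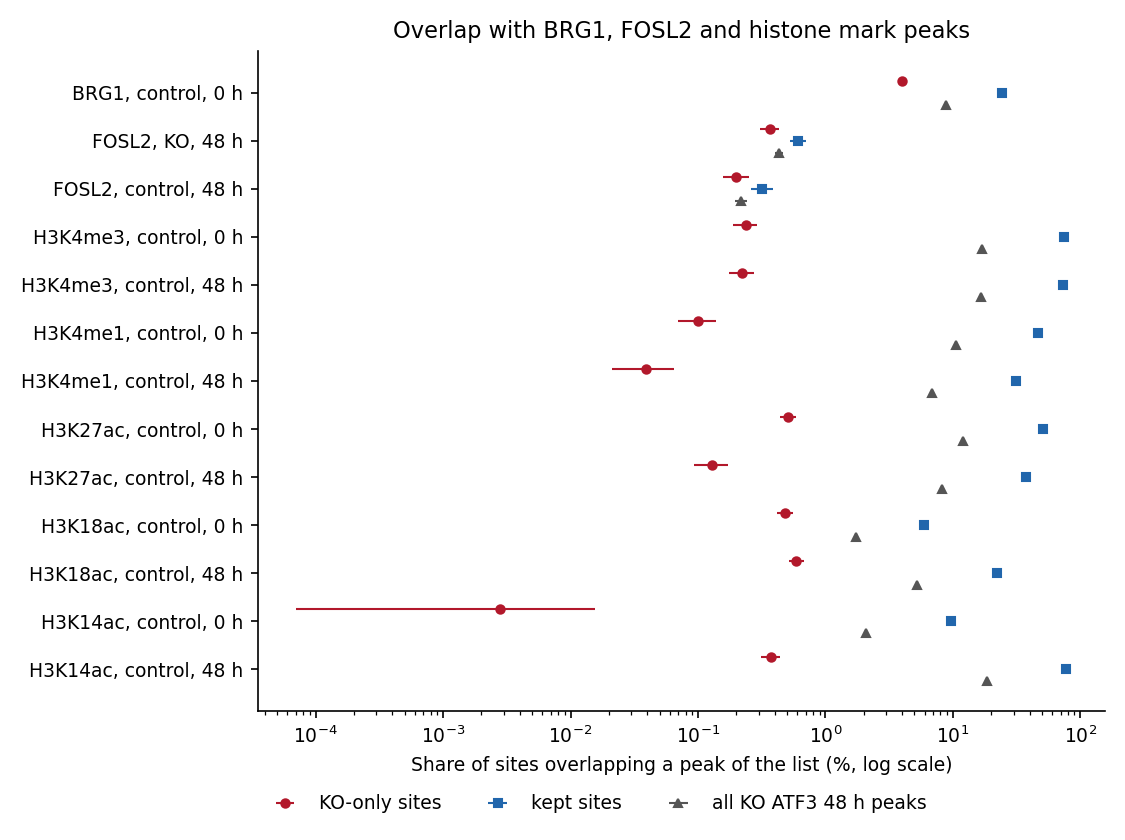
Share of sites (horizontal axis, %, log scale) that overlapped a peak of each list (rows) among 35929 KO-only sites (red circles), 30952 kept sites (blue squares) and all 144513 KO ATF3 48 h peaks (grey triangles); bars are 95% exact binomial intervals. Red lies left of blue in every row, by the least for FOSL2 (0.365% and 0.611% for the KO list) and by far more for marks such as H3K4me3 at 0 h (0.237% and 74.8%).

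The promoter mark H3K4me3 overlapped 85 KO-only sites at 0 h (0.237%) and 80 at 48 h (0.223%). Kept sites carried it at 74.8% and 73.8%, and all KO ATF3 peaks at 17.0% and 16.8%. The enhancer mark H3K4me1 overlapped 36 sites at 0 h (0.100%) and 14 at 48 h (0.0390%). It overlapped 46.3% and 31.2% of kept sites, and 10.7% and 6.81% of all KO ATF3 peaks. Both methylation marks were thus nearly absent from the KO-only sites before and after TGFβ1. At 0 h they were rarer still at the KO-only ATF3 peaks that lacked a KO PHF10 peak. H3K4me3 overlapped 0.0800% of those peaks and H3K4me1 overlapped 0.0200%, so scarce marks were not particular to the sites shared with PHF10.

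H3K27ac, the mark of active promoters and enhancers, overlapped 183 KO-only sites at 0 h (0.509%, interval 0.438 to 0.588%) and 46 at 48 h (0.128%, 0.0937 to 0.171%). Kept sites carried it at 50.9% and 37.4%, and all KO ATF3 peaks at 12.1% and 8.17%. The KO-only ATF3 peaks that lacked a KO PHF10 peak carried it at 0.172% and 0.128%. H3K27ac fold at 0 h had a median of 4.46 at the KO-only sites that had a peak, against 30.2 at kept sites and 10.6 over the whole list. Of the 182 H3K27ac 0 h peaks under KO-only sites, 36 (19.8%, 14.3 to 26.3%) overlapped a 48 h peak, against 61.1% of the whole 0 h list. Among 0 h peaks whose fold lay within the interquartile range of those at KO-only sites the share was 29.7% (28.6 to 30.7%). BRG1 at 0 h was found at 117 of the 183 KO-only sites with H3K27ac at 0 h. It was found at 7130 of 15770 such kept sites and 8105 of 17481 such KO ATF3 peaks.

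H3K18ac overlapped 174 KO-only sites at 0 h (0.484%) and 213 at 48 h (0.593%), and was the most frequent mark at 48 h. It overlapped 5.93% and 22.1% of kept sites, and 1.75% and 5.26% of all KO ATF3 peaks. At the KO-only ATF3 peaks that lacked a KO PHF10 peak the shares were 0.492% and 0.612%, close to those of the KO-only sites. At 103 of the 174 sites (59.2%, interval 51.5 to 66.6%) no other mark was listed at 0 h, against 3 of 1834 kept sites and 12.5% of all KO ATF3 peaks with H3K18ac. These 103 were 0.287% of KO-only sites, where the share was 0.219% for all KO ATF3 peaks. In the whole H3K18ac 0 h list 71.6% of peaks stood without another mark. H3K14ac overlapped 1 site at 0 h (0.00278%) and 134 at 48 h (0.373%), against 9.70% and 77.2% of kept sites and 2.08% and 18.4% of all KO ATF3 peaks. The KO-only ATF3 peaks that lacked a KO PHF10 peak had H3K14ac at 0.00800% and 0.0560%. The H3K14ac lists held 3453 peaks at 0 h and 35270 at 48 h, and what part that gap had in the counts was not tested. Any of the 10 mark lists was found at 599 KO-only sites (1.67%), against 86.3% of kept sites and 22.2% of all KO ATF3 peaks.

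FOSL2, the FOS-family partner of JUN, was found at a small number of KO-only sites in KO cells. The KO FOSL2 48 h list overlapped 131 sites (0.365%, interval 0.305 to 0.433%), against 189 kept sites (0.611%, 0.527 to 0.704%) and 0.432% of all KO ATF3 peaks. Control FOSL2 at 48 h overlapped 72 sites (0.200%), against 0.320% of kept sites and 0.218% of all KO ATF3 peaks. Of the 131 sites, 63 also had a control FOSL2 peak and 68 (0.189% of KO-only sites) had KO FOSL2 only, which was true of 0.241% of all KO ATF3 peaks. So at 48.1% (39.3 to 57.0%) of the FOSL2-bound KO-only sites FOSL2 was also called in control cells. The share was close to that of FOSL2-bound kept sites (45.0%) and of all FOSL2-bound KO ATF3 peaks (44.3%). By the rule, control cells had no ATF3 or PHF10 peak at these KO-only sites at 48 h. The FOSL2 lists held 7381 peaks in KO cells and 3444 in control cells. KO FOSL2 fold had a median of 8.07 at the 131 sites (range 3.41 to 25.1), against 7.30 at kept sites and 7.35 over the whole list. FOSB, a second FOS protein, was found at 1 site in KO cells and 6 in control cells, where its lists covered 0.00484% and 0.0263% of all KO ATF3 peaks.

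BRG1 at 0 h and FOSL2 at 48 h coincided. Of the 131 KO-only sites with KO FOSL2, 83 (63.4%, interval 54.5 to 71.6%) had BRG1 in untreated control cells, against 1358 of 35798 sites without KO FOSL2 (3.79%, 3.60 to 3.99%). Kept sites showed the same order, with 82.0% and 24.0%, and all KO ATF3 peaks had 70.6% and 8.65%. The 83 sites were 0.231% of KO-only sites, where 0.305% of all KO ATF3 peaks had both. BRG1 was at 41.8% of the whole KO FOSL2 list. The mark lists were missing from 105 of the 131 sites (80.2%, 72.3 to 86.6%), against 2 of 189 FOSL2-bound kept sites. Over all FOSL2-bound KO ATF3 peaks the share was 49.1% (45.1 to 53.1%). Median ATF3 peak width was 350 bp at the FOSL2-bound sites, 314 bp at the BRG1-bound sites and 289 bp at all KO-only sites.

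**Figure D3:**
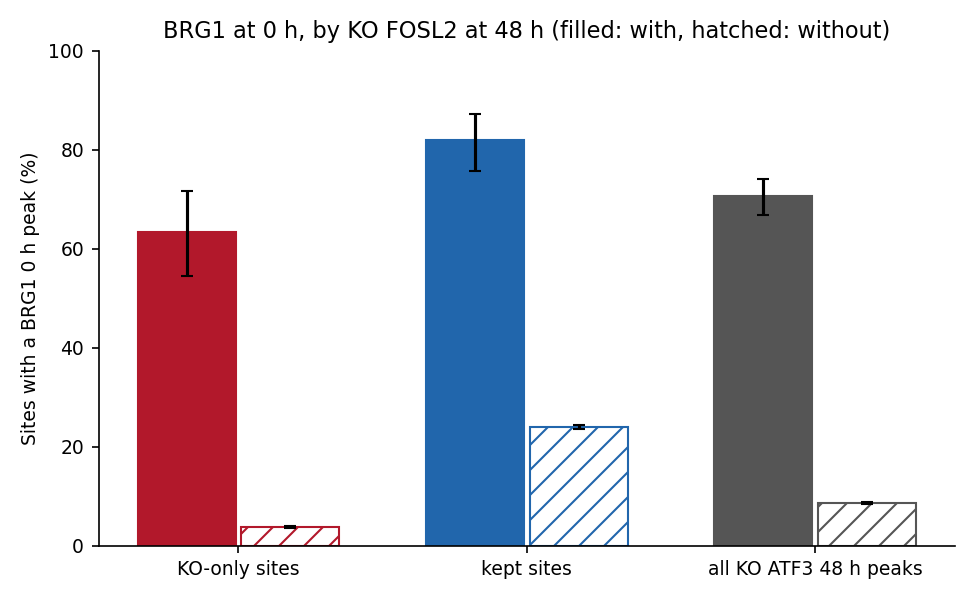
Share of sites with a BRG1 0 h peak of control cells (vertical axis, %) among KO-only sites (red), kept sites (blue) and all KO ATF3 48 h peaks (grey), with (filled) or without (hatched) a KO FOSL2 48 h peak; bars are 95% exact binomial intervals. In each colour the filled bar is higher, with 63.4% and 3.79% among KO-only sites.

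The 8 first-ranked KO-only sites with KO FOSL2, by the lower of their ATF3 and PHF10 significance percentiles, lay over 2 kb from a gene end in 6 cases. The first lay 81780 bp from Ywhaz, which encodes a 14-3-3 adaptor protein. It had folds of 3.97 for KO ATF3, 3.86 for KO PHF10, 16.8 for KO FOSL2, 9.55 for control FOSL2 and 3.02 for BRG1, and it was the 1 site with KO FOSB. The site in Axl, a receptor tyrosine kinase linked to the mesenchymal state, had 4.05 for KO ATF3, 3.84 for KO PHF10, 7.58 for KO FOSL2 and 4.71 for BRG1, with no control FOSL2 peak. The site in Ank1, which encodes an ankyrin of the membrane skeleton, had 4.73 for KO ATF3, 9.17 for KO FOSL2, 4.29 for BRG1 and an H3K27ac fold of 4.12 at 0 h. Sites in Slc26a9, an anion transporter, and Rps15a, a ribosomal protein gene, had KO FOSL2 folds of 3.41 and 9.49 and no BRG1 peak. The other 3 were 34899 bp from Frmd8, 342 bp from Dip2a and far from any gene, with KO FOSL2 folds of 9.56, 11.5 and 9.96. BRG1 was listed at 6 of these 8 sites, and control FOSL2 at 4.

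Another 5 sites with both BRG1 and KO FOSL2 are given by their nearest gene. They were chosen after their values were seen, and 2 of them lay well outside the gene named. A site 397 bp from Vim, the mesenchymal intermediate filament gene, had folds of 3.05 for KO ATF3, 2.72 for KO PHF10, 10.7 for KO FOSL2, 7.81 for control FOSL2 and 3.25 for BRG1. A site 32878 bp from Atf3 itself had 3.98 for KO ATF3, 2.97 for KO PHF10, 7.58 for KO FOSL2, 6.51 for control FOSL2 and 2.64 for BRG1. In Itga6, which encodes the laminin-binding integrin subunit alpha 6, the values were 3.06 for KO ATF3, 3.21 for KO PHF10, 13.2 for KO FOSL2 and 3.71 for BRG1, with no control FOSL2 peak. A site 53298 bp from Myc had 2.21 for KO ATF3, 2.17 for KO PHF10, 12.2 for KO FOSL2 and 10.3 for control FOSL2. Zfp469 held the second highest KO FOSL2 fold, 19.6, with 11.1 for control FOSL2. At all 5 the FOSL2 folds were higher than the ATF3 folds of the same site, though folds of different lists are not on 1 scale.

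Earlier ATF3 and PHF10 peaks were rare at the KO-only sites. In control cells, any ATF3 or PHF10 peak at 0 h or 24 h overlapped 332 sites (0.924%), against 73.2% of kept sites and 17.7% of all KO ATF3 peaks. Control ATF3 at 24 h overlapped 188 sites, against 438 kept sites, and 0.758% of all KO ATF3 peaks. Of the 2004 control ATF3 24 h peaks, 9.38% fell on KO-only sites, 22.0% on kept sites and 54.7% on any KO ATF3 48 h peak. Control PHF10 overlapped 119 sites at 24 h and 23 and 5 sites at 0 h in the 2 replicates, where it overlapped 16.9%, 6.61% and 9.08% of all KO ATF3 peaks. In KO cells, PHF10 at 0 h overlapped 8 sites and ATF3 at 24 h overlapped 7, against 7.38% and 0.0208% of all KO ATF3 peaks. No 0 h peak of ATF3, FOSL2 or FOSB fell on a KO-only site, which allows a share of up to 0.00835% by 3 counts and 0.0103% by the exact interval, but those 6 lists held 2 to 25 peaks each.

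The first-ranked KO-only sites differed in read pileup and in place. The first of all, in Sfi1, a centrosome gene, had a KO ATF3 pileup of 262 reads, against a median of 16 reads over KO-only sites, and folds of 3.47 for KO ATF3, 3.38 for KO PHF10 and 1.43 for BRG1. It also had a control ATF3 peak at 24 h. Sfi1 held 3 of the 15 first-ranked sites, and 7 KO-only sites in all had a pileup of at least 100 reads. The KO ATF3 folds of these 7 lay between 1.80 and 3.47, below the KO-only median of 3.60. They ranked high by significance and not by fold, and whether reads there were placed uniquely was not tested. The second site, in Camk1d, a calcium/calmodulin-dependent kinase gene, had a pileup of 266 reads and a KO ATF3 fold of 2.90. Others of the 15 had folds well above the median and a pileup under 100 reads, though above the median of 16 reads. In Atad1, which encodes an ATPase of the mitochondrial outer membrane, the folds were 7.04 for KO ATF3 and 5.25 for KO PHF10. A site 30766 bp from Zmynd8, a chromatin reader gene, had 6.09 for KO ATF3 and 4.86 for KO PHF10, and H3K14ac at 48 h. Another 2 of the 15 lay over 100 kb from any protein-coding gene end, with KO ATF3 folds of 8.16 and 6.63. The remaining first-ranked sites lay in or near Zfp992, Gm15319, Gm21083, 4930467E23Rik, Scaf8, Sp110 and 9530057J20Rik.

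First-ranked BRG1-bound KO-only sites, beside those in Sfi1 and near Zfp992, lay 55134 bp from Trub1, a pseudouridine synthase gene, 48070 bp from Lekr1, in Mtbp, which encodes an MDM2-binding protein, and in Cemip, a hyaluronan-degrading protein gene. Their BRG1 folds were 2.66 near Trub1, 3.10 near Lekr1, 3.31 in Mtbp and 2.91 in Cemip, and their KO ATF3 folds lay between 4.75 and 5.78. None of these 4 overlapped a mark list.

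The shares with BRG1, any mark and FOSL2 were similar across groups by ATF3 significance. A fold cut on both KO lists, which is not the same kind of split, gave lower shares. In 4 groups of equal size by ATF3 significance, from weakest to strongest, BRG1 was found at 3.83%, 4.07%, 3.99% and 4.15%. Any mark was found at 1.56%, 1.60%, 1.77% and 1.74%, and KO FOSL2 at 0.323%, 0.468%, 0.312% and 0.356%. The intervals of the strongest and weakest group overlapped for all 3, and for BRG1 ran from 3.75 to 4.59% and from 3.44 to 4.25%. At the 2362 sites that met the rule with a fold of at least 4 in both KO lists, BRG1 was found at 2.20% (1.65 to 2.88%), H3K27ac at 0 h at 0.0847% (0.0103 to 0.306%) and KO FOSL2 at 0.0423% (0.00107 to 0.236%), all lower than in the whole set. With a −log10 q of at least 5 in both KO lists, the 1276 sites had 3.92% (2.92 to 5.13%), 0.313% (0.0855 to 0.801%) and 0.157% (0.0190 to 0.565%). Each of these intervals held the share of the whole set. Neither cut was applied to all KO ATF3 peaks. The share within 2 kb of a gene end was 8.82% (8.24 to 9.42%) in the strongest group and 10.4% (9.77 to 11.05%) in the weakest.

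The KO-only sites were distal. A protein-coding gene end, the start or the end of a gene span in RefSeq GRCm38.p6, was within 2 kb of 3562 sites (9.91%, interval 9.61 to 10.2%), against 49.4% of kept sites and 20.2% of all KO ATF3 peaks. Median distance was 19283 bp, against 2129 bp and 12896 bp. Over 100 kb away were 5543 sites (15.4%), against 6.88% of kept sites and 12.5% of all KO ATF3 peaks. The KO-only ATF3 peaks that lacked a KO PHF10 peak lay farther out still. Of those, 7.30% were within 2 kb and 20.2% over 100 kb away, and their median distance was 25916.5 bp. Gene spans held 56.1% of KO-only sites, 77.8% of kept sites and 63.1% of all KO ATF3 peaks. RefSeq promoter windows overlapped 522 sites (1.45%), against 24.8% of kept sites and 6.77% of all KO ATF3 peaks. Within the KO-only sites, BRG1 was found at 5.00% (4.30 to 5.76%) of those within 2 kb of a gene end and at 2.53% (2.13 to 2.97%) of those over 100 kb away.

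**Figure D4:**
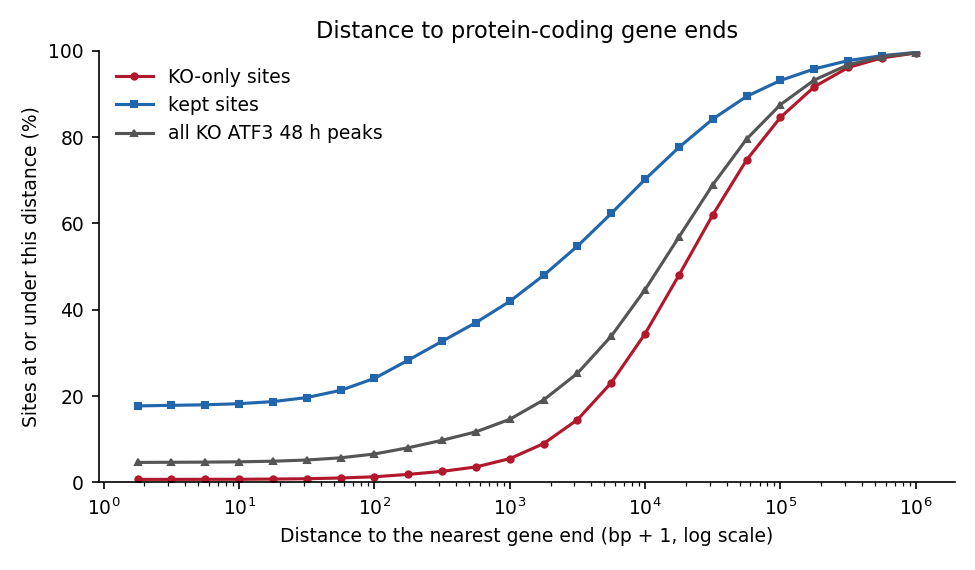
Cumulative share of sites (vertical axis, %) at or under a distance from the nearest end of a protein-coding gene (horizontal axis, bp plus 1, log scale) for KO-only sites (red circles), kept sites (blue squares) and all KO ATF3 48 h peaks (grey triangles). The red line stays lowest up to about the megabase end of the axis, with medians of 19283, 2129 and 12896 bp.

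Density followed that of all KO ATF3 peaks along the genome. KO-only sites numbered 21.6 per Mb on chromosome 19 and 21.2 on chromosome 11, the densest, and 5.67 on chromosome 14 and 4.54 on the X, the sparsest apart from the Y with 1 site. All KO ATF3 peaks numbered 99.4, 92.0, 23.7 and 18.99 per Mb on the same chromosomes. The share of KO ATF3 peaks that were KO-only sites lay between 21.7% on chromosome 19 and 28.4% on chromosome 3 over the autosomes and X.

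A KO-only site lay in the span or within 10 kb of 11577 of 21887 protein-coding genes (52.9%), and within 2 kb of a gene end of 3455 (15.8%). Of the 11577 genes, 11194 also had a control ATF3 or PHF10 48 h peak in the same window. The gene lists are set beside that 52.9%, and their windows differed in length. Of the mesenchymal and TGFβ response genes, 32 of 45 had a site (71.1%, interval 55.7 to 83.6%), and so had 26 of 35 epithelial genes (74.3%, 56.7 to 87.5%). AP-1, ATF and MAF factors had one at 20 of 26 (76.9%, 56.4 to 91.0%), SWI/SNF subunits at 21 of 28 (55.1 to 89.3%) and adhesion genes at 18 of 24 (53.3 to 90.2%). YAP/TEAD targets had one at 13 of 20 (65.0%), proteases and their inhibitors at 10 of 20 (50.0%), housekeeping genes at 11 of 20 (55.0%) and markers of other cell types at 13 of 25 (52.0%). Median windows were 51.8 kb for the mesenchymal, 38.4 kb for the epithelial and 86.6 kb for the adhesion list, against 37.2 kb for all genes. In sites per 100 kb the lists lay between 2.09 for housekeeping genes and 3.62 for YAP/TEAD targets, against 3.16 for markers of other cell types and 2.03 for all genes. The mesenchymal and epithelial lists did not stand apart from each other, at 3.21 and 3.19 sites per 100 kb.

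**Figure D5:**
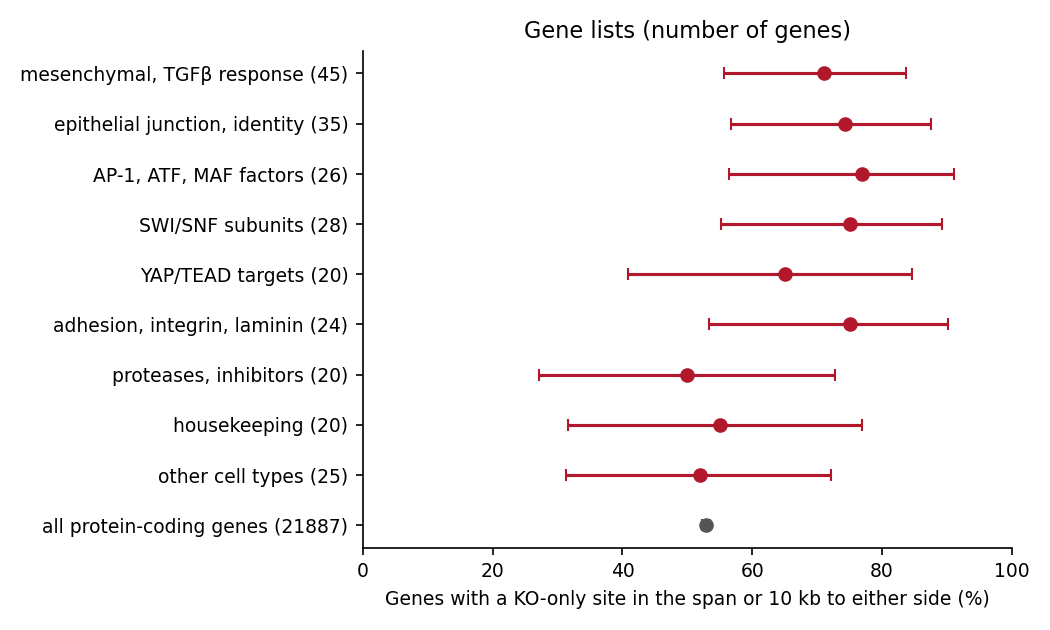
Share of genes (horizontal axis, %) with a KO-only site in the gene span or 10 kb to either side, for 9 gene lists (red) and all protein-coding genes (grey), with the number of genes in parentheses and 95% exact binomial intervals. The point of the AP-1, ATF and MAF list is highest, at 76.9%, and all genes stand at 52.9%; the windows differ in length between lists.

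Among mesenchymal and TGFβ response genes, Tgfb2, a TGFβ ligand gene, held 7 sites, the best with 5.07 for KO ATF3 and 4.45 for KO PHF10. The basement membrane collagen gene Col4a1 held 11, the best with 4.23 and 3.72. Hmga2, a chromatin protein gene, held 6, the best with 5.18 and 3.36, and Tgfbi, a matrix protein gene, held 4, the best with 4.50 and 3.64. Axl held 4, with the values given above. Of the best sites of these 5 genes, that of Axl alone overlapped BRG1 or FOSL2.

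Epithelial genes had sites as well, and the best sites, picked by rank, support no comparison of height between the lists. Pkp2, a desmosome plakophilin gene, had a site with folds of 6.19 for KO ATF3 and 4.52 for KO PHF10. Grhl2, a transcription factor gene of epithelial identity, held 7 sites, the best with 5.59 and 4.14. Tjp1, which encodes the tight junction protein ZO-1, also held 7, the best with 6.13 and 4.32. The E-cadherin gene Cdh1 held 3, the best with 5.00 and 3.42. Pkp1, another plakophilin gene, held 3, the best with 4.33 and 3.51. BRG1 was at 1 of the 3 sites of Cdh1 and at none of those of Pkp2, Grhl2, Tjp1 and Pkp1.

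In the AP-1, ATF and MAF list, Atf7 held 6 sites, the best with 5.00 for KO ATF3 and 4.25 for KO PHF10. Atf1 held 4, Maff and Bach1 held 3 each, and Nfe2l2 and Creb1 held 1 each. Of the genes of the proteins studied, Smarca4 had 3 sites, Atf3 had 2, Pbrm1 and Fosb had 1 each, and Phf10 and Fosl2 had none. The site of Pbrm1 had folds of 3.31 for KO ATF3 and 2.93 for KO PHF10. SWI/SNF subunit genes included Dpf2, with a site 8881 bp away at 4.41 for KO ATF3 and 3.71 for KO PHF10, Bicra with 5 sites, Smarca2 with 9, Bicral with 4, Dpf3 with 12 and Smarce1 with 1. Smarca2 encodes BRM, the other SWI/SNF ATPase, and its best site had folds of 5.41 and 3.70.

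YAP/TEAD target genes with the best-ranked sites were Ankrd1, Crim1, Arhgef17, Nuak2, Axl and Tead1. Ankrd1, a muscle and stress ankyrin-repeat gene, held 2 sites, 1 of them with BRG1 and 1 with H3K27ac at 0 h, and the best with 3.52 for KO ATF3 and 3.39 for KO PHF10. Tead1, which encodes the DNA-binding partner of YAP, held 11. Of the adhesion genes, Itgb5 held 7 sites, Actn1 6, Lamb3 5, and Itga6 and Itgb3 4 each, while Itgb4 held 2. Of the proteases and inhibitors, Timp2, a metalloproteinase inhibitor gene, held 7 sites, 2 of them with BRG1, 1 with KO FOSL2 and 2 with H3K27ac at 0 h, and Mmp10 held 1 at a KO ATF3 fold of 6.03, while Mmp11, Mmp15 and Mmp9 held 2 each. Housekeeping genes held 1 site each at B2m, Gapdh, Ywhaz, Actb and Psmb2, and the first 4 of these sites overlapped BRG1, with folds of 3.57 at B2m, 2.48 at Gapdh, 2.97 at Ywhaz and 2.95 at Actb. Among markers of other cell types, the neuronal gene Rbfox3 held 29 sites, Pecam1 and Mbp held 7 each, Adgre1 held 2, and Nanog and Cd68 held 1 each.

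The genes with the most sites were long ones. Camta1, a calmodulin-binding transcription activator gene, held 49 in a window of 822 kb. Sorcs2, a sortilin-family receptor gene, held 40 in 401 kb, Nav2, a neuron navigator gene, 38 in 671 kb, and the cadherin genes Cdh23 and Cdh4 held 37 each in 414 and 477 kb. Per 100 kb these 5 held between 5.66 and 9.97 sites, against 2.97 over the windows of all genes with a site. The 5 were picked by their number of sites, which favours a high density, so the contrast is a description only.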

How the data were processed

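The data were 32 deposited ChIP-seq peak lists from NMuMG cells, 1 per library. Tools named in the submitters' processing notes, with no role or setting, were MACS3 3.0.0a7, Bowtie2 2.3.3 and deepTools 3.5.1; Partek 11.0.24.0325, fastp 0.19.5 and the mm10 build also appear there. Per the labels' protocols, cells for BRG1, PHF10 and ATF3 were crosslinked with disuccinimidyl glutarate and formaldehyde, the others with formaldehyde only. Each peak has a deposited pileup signal (reads stacked), deposited −log10 values of the p- and q-value against input, and the authors' fold enrichment over input; folds are each list's own and served to describe and rank within it. Headers were in 2 lists, per the file headers naming these columns; the others were read in the same order. The PHF10 and BRG1 lists give no summit and reach a −log10 q of 1.00, the others 1.30. Read depth is unknown.

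Starts may be off by 1 base, since the lists do not say where they count from. Peaks were kept on 21 chromosomes and overlapped at 1 bp in Python 3.11.15 (numpy 2.4.6, pandas 2.3.3, scipy 1.17.1, matplotlib 3.10.9); the code was tested on simulated peaks. Genes and promoter windows are from RefSeq GRCm38.p6, whose 32817 windows were read with their sequences; all list genes matched. Sites were ranked by the lower of their percentile by −log10 q in the KO ATF3 list and that of the best overlapping peak in the KO PHF10 list. Named were the genes of the 15 first-ranked sites, up to 6 genes per list by best site, the 8 first-ranked sites with KO FOSL2 and with BRG1, the 5 genes with most sites and the genes of the proteins studied; others are said to be chosen after their values were seen. A few genes that the rule names are not reported here. The sites, gene lists and readouts were chosen with earlier results of these data known. KO groups had 1 library per antibody, so no test was made. Alternatives changed the significance, fold, overlap, distance, list length, control PHF10 replicates, gene-end window and use of the summit.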

Additional observations from a re-analysis of the deposited data

How the results depend on the processing

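Of 48 values recomputed under alternatives, 13 stayed within 1.5 times the number of sites or within the interval of the share, and 35 moved. The number of sites was 1276 with a −log10 q of at least 5 in both KO lists, 2362 with a fold of at least 4 and 7346 with the KO lists shortened to the control lengths, against 35929. It lay between 38450 and 71154 with 1 control PHF10 replicate left out. BRG1 at 0 h, 4.01%, was 2.20% with a fold of at least 4, 3.16% with an overlap of 50% of the shorter peak, 3.70% with no control peak within 1 kb, 4.47% with lists of control length and 2.94% at the ATF3 summit, and 4.12 to 4.50% with 1 replicate left out. H3K4me3 at 0 h, 0.237%, was 0.313% at −log10 q of at least 5, 0.508% at fold of at least 4, 0.343% at 50% overlap, 0.354% at control length and 0.159% at the summit, and 0.336 to 0.531% with 1 replicate left out. H3K27ac at 0 h, 0.509%, was 0.313% at −log10 q of at least 5, 0.0847% at fold of at least 4, 0.418% with no control peak within 1 kb and 0.379% at the summit, and 0.759 to 0.783% with 1 replicate left out. KO FOSL2, 0.365%, was 0.157% at −log10 q of at least 5, 0.0423% at fold of at least 4, 0.206% at 50% overlap and 0.167% at the summit, and 0.347 to 0.406% with 1 replicate left out. The share within 2 kb of a gene end, 9.91%, was 7.99% at −log10 q of at least 5, 5.63% at fold of at least 4, 10.8% at 50% overlap, 7.52% with no control peak within 1 kb and 9.07% at control length, and 10.2 to 12.5% with 1 replicate left out. It was 5.53% for a 1 kb and 34.5% for a 10 kb window. The cause of each change was not tested, beyond the wider or narrower window and the fewer sites of a stricter list.

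At the ATF3 summit, kept sites had BRG1 at 19.2%, H3K4me3 at 66.6%, H3K27ac at 45.1% and KO FOSL2 at 0.187%. With lists of control length they had 34.7%, 80.4%, 61.8% and 0.893%. So the KO FOSL2 shares of KO-only and kept sites, 0.167% (0.127 to 0.215%) and 0.187% (0.142 to 0.242%) at the summit, had overlapping intervals, while at control length, with 0.408% (0.276 to 0.582%) and 0.893% (0.739 to 1.07%), they did not. For BRG1, H3K4me3 and H3K27ac at 0 h the intervals of KO-only and kept sites did not overlap in either setting; other marks were not run. No paired analysis was possible because only control PHF10 has 2 replicates and the result comes from no test. An absent peak is not an absent protein, since depth is unknown and each list has its own threshold.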

Other observations

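Genes that had a KO-only site and no control ATF3 or PHF10 48 h peak in the span or 10 kb to either side numbered 383, which was 3.31% of the genes with a site and 11.6% of the 3309 genes with no such control peak. Olfactory and vomeronasal receptor genes (symbols starting with Olfr or Vmn) were 103 of these 383 (26.9%, 95% exact binomial interval 22.5 to 31.6%), against 32.4% (30.8 to 34.0%) of the 3309 genes with no such control peak. A KO-only site was found at 9.61% of the 1072 receptor genes with no control peak. Among the first by rank were Vmn2r32, with folds of 6.79 for KO ATF3 and 5.96 for KO PHF10, Abca15 with 7.15 and 6.13, and Olfr958 with 6.76 and 5.07. The Abca15 site is the same one as that shown above at the Abca16 promoter window. Receptor genes of these families have near-identical copies, and whether reads there were placed uniquely was not tested. Of the 1465 receptor genes, 163 had a KO-only site (11.1%), against 52.9% of all protein-coding genes.

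The gene with the highest KO FOSL2 fold, S100a3, also had an H3K27ac fold of 33.0 at 0 h at the KO-only site, against a median of 4.46 over the KO-only sites with H3K27ac. Among the first-ranked KO-only sites with H3K27ac at 0 h, chosen after their values were seen, a site 73209 bp from Sertad2 had a KO ATF3 fold of 9.74, an H3K27ac fold of 9.06, a BRG1 fold of 3.42 and an H3K27ac peak at 48 h as well.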
